A study of Mus musculus with 8 samples.

Results

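The cytosolic nucleic acid sensors, 10 genes in all, were followed in macrophages of WT and iNOS-/- mice, the second carrying a disrupted Nos2 gene for inducible nitric oxide synthase (iNOS). The genes were Ddx58, Ifih1, Dhx58, Zbp1, Trex1, Ifi204, Ifi205, Eif2ak2, Adar and Samhd1. They were taken by name, with every probe that carried one of these symbols. The 10 genes, of 18138 gene symbols on the array, had 16 probes of 25697, and all 16 were among the 13868 probes tested. Bone marrow of female mice aged 8 weeks, labelled C57bl/6J for both genotypes, was cultured with GM-CSF at 10 ng/ml for 7 days. The methods name the mutant allele as that of strain B6.129P2-Nos2tm1Lau/J. Unstimulated cells, labelled CON, received nothing further, and M1 cells received LPS at 200 ng/ml plus IFN-γ at 10 ng/ml for 6 h. Each of the 4 groups (WT unstimulated, WT M1, iNOS-/- unstimulated, iNOS-/- M1) was measured on 2 Illumina bead arrays. The labels do not say whether these came from separate mice or cultures, so p-values measure the spread between arrays, which may be technical.

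Cells carry proteins in the cytosol that recognise RNA or DNA that should not be there, such as the genome of an entering virus. RIG-I-like receptors bind RNA and ZBP1 binds nucleic acid in the left-handed Z form, while PYHIN proteins bind DNA. A further group of enzymes, among them TREX1, SAMHD1 and ADAR, removes or edits the cell's own nucleic acids or nucleotides and so limits what the sensors meet. Most of these genes are known as interferon-stimulated genes, which macrophages switch on when interferon binds its receptors.

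The 16 probes were 50 bases long, and none shared a run of more than 14 bases with a probe of another gene. The probes of Ifi204 and Ifi205 at transcript position 321 are shown side by side because the genes are close relatives. Aligned without gaps over 33 bases they matched at 26. The first 30 aligned bases follow, with the 4 that differ among them in capitals. The aligned bases left out after these all differ.
Ifi204 probe: ccagctgatTctggattggGcaAactgatT
Ifi205 probe: ccagctgatGctggattggAcaGactgatC
Transcript of one gene could in principle bind the probe of the other. This was not tested, so the values of Ifi204 and Ifi205 are uncertain as to which PYHIN gene they count. The second Ifi205 probe, at position 1160, lies elsewhere in the transcript.

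Promoter sequence from RefSeq (GRCm38.p6) was at hand for 7 of the 10 genes, with 10 start sites among them. The 250 bases before each start were searched on both strands for GAAANNGAA, the core of the interferon-stimulated response element (ISRE), and for TTCNNNGAA, the form of the IFN-γ activated site (GAS), which reads alike on both strands. The ISRE-type core was found in 3 of the 7 genes (Ifih1, Ifi205 and, at 1 of 3 starts, Adar) and the GAS-type sequence in Eif2ak2 and Samhd1. Among all 27025 genes in the table, 8.18% held the first and 8.13% the second. The 5 matches, none of which overlapped another, are printed in windows of 60 bases in the direction of the gene, with the match in capitals.
Ifih1, chr2:62646333-62646392, minus strand: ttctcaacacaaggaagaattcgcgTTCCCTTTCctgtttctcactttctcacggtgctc
Ifi205, chr1:174031855-174031914, minus strand: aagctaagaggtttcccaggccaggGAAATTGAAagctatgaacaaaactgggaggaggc
Adar, chr3:89730468-89730527, plus strand: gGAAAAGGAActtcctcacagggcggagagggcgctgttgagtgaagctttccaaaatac
Eif2ak2, chr17:78882716-78882775, minus strand: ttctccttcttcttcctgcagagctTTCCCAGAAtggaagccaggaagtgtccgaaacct
Samhd1, chr2:157135287-157135346, minus strand: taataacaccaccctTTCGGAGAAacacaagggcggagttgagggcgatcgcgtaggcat
The matches began 112 (Ifih1), 134 (Ifi205), 249 (Adar), 178 (Eif2ak2) and 235 (Samhd1) bases before the start, and the Ifih1 match lay on the opposite strand. A match describes the letters in the window and does not show that a factor bound there. Ddx58 and Trex1 held neither sequence in these windows, and both were called higher in M1 cells of either genotype (below 0.05 in adjusted p).

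Intensities below are given after scaling the arrays to each other, in arbitrary units, and a detection p-value under 0.05 counts as detected. Arrays of one group differed by a median of 0.16 to 0.19 and arrays of different groups by 0.34 to 0.82 on the log2 scale. All 11 macrophage markers on the array, among them Emr1, Csf1r and Cd68, were detected on both arrays of every group, which fits the label. Of these, 3 were called higher and 5 lower in iNOS-/- M1 than in WT M1 arrays, where 24.2% of all probes tested were called higher and 24.3% lower. Nos2 did not check the genotype label. Its probe, at transcript position 3546, read 175 and 132 in WT M1 and 184 and 206 in iNOS-/- M1 (log2 difference 0.36, SE 0.32, adjusted p = 0.397), and whether it lies in the altered part of the gene was not determined. By western blot the study reported iNOS protein in stimulated WT but not in stimulated iNOS-/- macrophages, after a longer stimulation. That blot did not read the samples of these arrays, so directions are those of the labels. Other marker lists moved with the groups: 9 dendritic cell genes summed to 277 to 317 in WT unstimulated, 5475 to 5576 in WT M1, 4245 to 4414 in iNOS-/- unstimulated and 16580 to 17620 in iNOS-/- M1, with Flt3 undetected throughout and 3 of 7 tested higher and 2 lower in iNOS-/- M1 than in WT M1. The 8 granulocyte genes summed to 1125 to 1157, 1383 to 1498, 1657 to 1727 and 3934 to 4036 in the same order of groups, with Mpo undetected throughout and 3 of 7 tested higher and 0 lower between the M1 groups. The 10 dividing cell genes summed to 2639 to 2770, 4459 to 4803, 5081 to 5082 and 2776 to 3062. Ccnb2 and Bub1 were undetected throughout, and 1 of 8 tested was higher and 6 lower between the M1 groups. Dendritic cell genes detected on both arrays numbered 4, 7, 7 and 5 in this order of groups. Before stimulation 6 of 7 dendritic cell genes were called higher in iNOS-/- cells and 0 lower. The counts were 5 of 7 and 1 for granulocyte, 7 of 8 and 0 for dividing cell and 2 of 11 and 3 for macrophage genes. Among all probes tested 15.9% were called higher and 16.2% lower there. The 8 lymphocyte genes, of which Cd3e, Cd3g, Ms4a1 and Nkg7 were among those undetected throughout, summed to at most 88.7 and the 6 fibroblast genes to at most 18.0 on any array. The part of these markers in the results below was not tested, and in RNA from whole cultures fewer cells of a type and less RNA per cell cannot be told apart.

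After scaling, all 16 probes of the sensors were brighter in iNOS-/- M1 macrophages than in WT M1 macrophages. They were also brighter in WT M1 macrophages than in unstimulated cells of either genotype, with no overlap between these groups. Of all probes tested, 37.8% had both iNOS-/- M1 arrays above both WT M1 arrays. For WT M1 above WT unstimulated arrays the share was 38.8%. The shares for WT M1 against iNOS-/- unstimulated arrays and for the whole order were not computed. Scaling multiplied unstimulated arrays by 0.80 to 0.90 and M1 arrays by 1.12 to 1.30. Before scaling, Adar at position 3611 overlapped, at 60.2 and 72.7 in WT M1 and 61.9 and 54.8 in WT unstimulated arrays. Adar at 5455 then overlapped between WT M1 and iNOS-/- unstimulated arrays. For these 2 probes the separation therefore depends on the scaling. The plot of scaled intensities by array shows the order after scaling for each probe. The RNA sensors come first, then the Z-form and double-stranded RNA proteins, then the DNA-binding and clearing proteins.

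**Figure D1:**
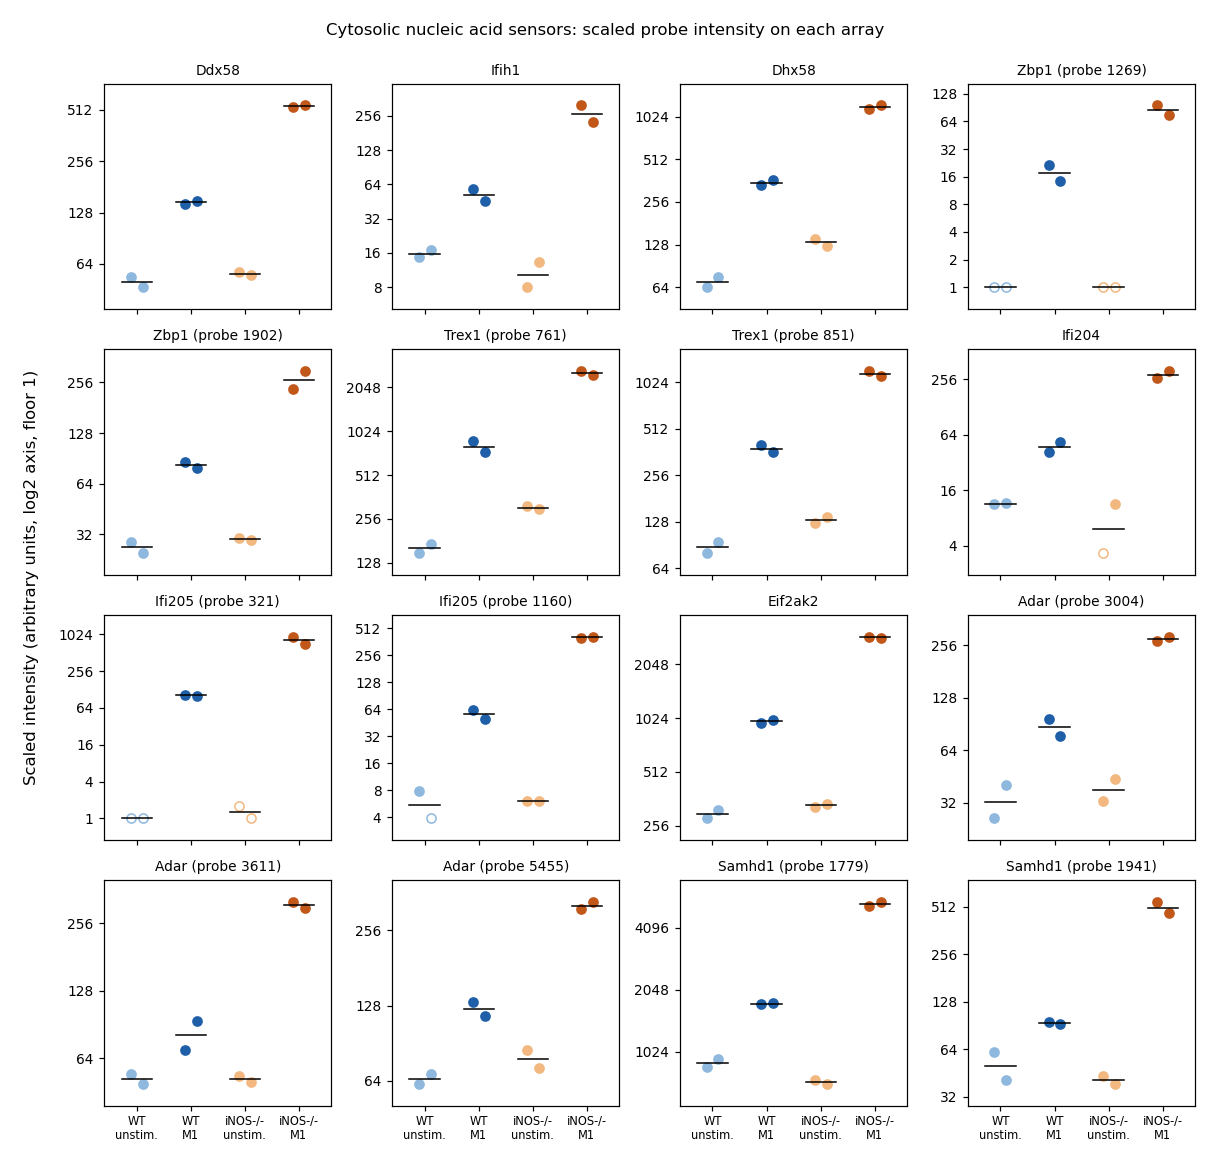
Scaled intensity of each of the 16 probes (vertical log2 axis, arbitrary units, values under 1 drawn at 1) on the 2 arrays of each group. Points are arrays, filled where detected and open where not, and bars are group means of log2 values. In every panel both iNOS-/- M1 arrays lie highest and both WT M1 arrays next.

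Ddx58 encodes RIG-I, the helicase that recognises viral RNA ends. It read 53.6 and 46.7 in WT unstimulated, 57.4 and 54.7 in iNOS-/- unstimulated, 145 and 149 in WT M1, and 536 and 544 in iNOS-/- M1 arrays. The 2 unstimulated groups lay close together, and the M1 groups stood apart from them and from each other. Stimulation raised it 2.93-fold in WT (log2 1.55, SE 0.099, adjusted p = 0.000396) and 9.63-fold in iNOS-/- cells (log2 3.27, SE 0.099, adjusted p = 2.93e-05). Ifih1 encodes MDA5, which binds long double-stranded RNA. Its readings were 14.8 and 16.8 in WT unstimulated, 8.02 and 13.3 in iNOS-/- unstimulated, 58.1 and 46.0 in WT M1, and 315 and 227 in iNOS-/- M1 arrays. The unstimulated values were near the bottom of the scale, and the 2 iNOS-/- M1 arrays differed more from each other than for Ddx58. Ifih1 rose 3.28-fold in WT (log2 1.71, SE 0.30, adjusted p = 0.0105) and 25.9-fold in iNOS-/- cells (log2 4.69, SE 0.30, adjusted p = 0.000198). Over the alternatives its iNOS-/- response ran from log2 3.33 to 5.04. Without WT unstimulated array 1 or without WT M1 array 1 its WT response no longer passed (adjusted p = 0.0567 and 0.0521).

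Dhx58 encodes LGP2, the RIG-I-like receptor that lacks the signalling domains and modulates the other two. It read 64.2 and 76.2 in WT unstimulated, 141 and 125 in iNOS-/- unstimulated, 337 and 364 in WT M1, and 1148 and 1225 in iNOS-/- M1 arrays. Here the unstimulated groups were also apart, the iNOS-/- arrays being the higher. Dhx58 rose 5.01-fold in WT (log2 2.32, SE 0.13, adjusted p = 0.000238) and 8.95-fold in iNOS-/- cells (log2 3.16, SE 0.13, adjusted p = 5.34e-05).

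Zbp1 encodes the Z-form nucleic acid sensor that can start necroptosis. Its probe at position 1902 read 29.0 and 24.9 in WT unstimulated, 30.3 and 29.8 in iNOS-/- unstimulated, 86.3 and 79.6 in WT M1, and 235 and 299 in iNOS-/- M1 arrays. It rose 3.09-fold in WT and 8.81-fold in iNOS-/- cells. The probe at position 1269 was not detected on any of the 4 unstimulated arrays and read 21.7 and 14.3 in WT M1 and 95.5 and 75.7 in iNOS-/- M1. Only bounds follow, a rise of at least 3.11-fold in WT and at least 17.2-fold in iNOS-/- cells, and the WT call was lost when values under 16 were set to 16 (log2 0.22, adjusted p = 0.482). Eif2ak2 encodes PKR, the kinase that halts translation when it meets double-stranded RNA. Its intensities were 281 and 311 in WT unstimulated, 326 and 338 in iNOS-/- unstimulated, 959.8 and 999.7 in WT M1, and 2922 and 2876 in iNOS-/- M1 arrays. Replicate arrays lay within a narrow range in each group. Eif2ak2 rose 3.31-fold in WT (log2 1.73, SE 0.090, adjusted p = 0.000211) and 8.73-fold in iNOS-/- cells (log2 3.13, SE 0.090, adjusted p = 2.68e-05).

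Adar encodes ADAR1, which edits adenosine to inosine in double-stranded RNA and so keeps the cell's own RNA from being sensed. It had 3 probes. The one at position 5455 read 62.3 and 68.6 in WT unstimulated, 85.3 and 72.0 in iNOS-/- unstimulated, 132 and 117 in WT M1, and 311 and 331 in iNOS-/- M1 arrays. At position 3611 the readings were 54.5 and 49.3, 53.3 and 50.2, 69.8 and 94.2, and 317 and 299 in the same order of groups. The third probe, at position 3004, read 26.0 and 40.4, 32.9 and 43.7, 96.6 and 77.5, and 270.4 and 286. Adar had the smallest WT responses of the list together with Samhd1, at log2 0.93 (SE 0.13), 0.65 (SE 0.16) and 1.42 (SE 0.26) in this order of probes, with adjusted p = 0.00499, 0.0315 and 0.0124. In iNOS-/- cells the 3 probes rose by log2 2.03, 2.57 and 2.87. The WT response at position 3611 was lost in 11 of 16 alternative settings. These included leaving out any array but WT M1 array 1 (adjusted p = 0.0501 to 0.143). At position 3004 it was lost without WT M1 array 1 (adjusted p = 0.0586). Which transcript forms of Adar each probe matches was not determined.

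Ifi204 and Ifi205 belong to the PYHIN family of DNA-binding, interferon-inducible proteins. Ifi204 read 11.3 and 11.6 in WT unstimulated, 3.38 and 11.3 in iNOS-/- unstimulated, 41.9 and 53.5 in WT M1, and 264 and 315 in iNOS-/- M1 arrays. The lowest of these, an iNOS-/- unstimulated array, was not detected. Ifi204 rose 4.14-fold in WT (log2 2.05, SE 0.56, adjusted p = 0.0397) and 46.7-fold in iNOS-/- cells (log2 5.55, SE 0.56, adjusted p = 0.000840, and log2 3.58 with neqc), with the widest error of the 16 probes. Its WT response was lost without either WT unstimulated array, either WT M1 array or either iNOS-/- M1 array (adjusted p = 0.0631 to 0.144). The Ifi205 probe at position 321 was undetected on all 4 unstimulated arrays and read 104 and 100.2 in WT M1 and 936 and 703 in iNOS-/- M1. This makes a rise of at least 18.1-fold in WT and at least 164-fold in iNOS-/- cells. The second Ifi205 probe read 7.74 and 3.87, of which the lower was undetected, in WT unstimulated, 6.08 and 6.09 in iNOS-/- unstimulated, 62.1 and 50.0 in WT M1, and 403 and 411 in iNOS-/- M1 arrays. It rose 10.2-fold in WT (log2 3.35, SE 0.33) and 66.9-fold in iNOS-/- cells (log2 6.06, SE 0.33). Over the alternatives its iNOS-/- response ran from log2 4.08 to 6.09.

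Trex1 encodes the main exonuclease that degrades DNA in the cytosol. Its probe at position 761 read 150.2 and 173 in WT unstimulated, 313 and 300.4 in iNOS-/- unstimulated, 873 and 733 in WT M1, and 2645 and 2479.6 in iNOS-/- M1 arrays. At position 851 the values were 80.7 and 95.2, 125 and 138, 402 and 360.0, and 1211 and 1118. Both probes placed the 4 groups in the same order without overlap. Trex1 rose 4.97-fold and 4.34-fold in WT, and 8.36-fold and 8.87-fold in iNOS-/- cells, at these positions in turn. Samhd1 encodes a triphosphohydrolase that lowers the supply of DNA building blocks. It read 858 and 944 in WT unstimulated, 746 and 714 in iNOS-/- unstimulated, 1734 and 1763 in WT M1, and 5208 and 5434 in iNOS-/- M1 arrays at position 1779. The probe at 1941 read 61.0 and 40.8, 43.2 and 38.5, 95.7 and 92.3, and 547 and 465. Samhd1 rose 1.94-fold and 1.88-fold in WT (log2 0.96, SE 0.089, and 0.91, SE 0.21), and 7.29-fold and 12.4-fold in iNOS-/- cells. Its WT response at 1941 was lost without WT unstimulated array 2, where it fell to log2 0.59, and without either WT M1 array (adjusted p = 0.0649 to 0.0936).

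In WT cells 16 of 16 probes were thus called higher after LPS plus IFN-γ, where 20.2% of all probes tested were called higher. The members' median log2 change was 1.72 (1.68 with undetected probes at their bounds), and that of all probes was 0.07. In iNOS-/- cells the count was again 16 of 16, against 26.2% of all probes, with a median of 3.15 against 0.04. Both arrays lay above both unstimulated arrays for 38.8% of all probes in WT and 40.4% in iNOS-/- cells. With neqc, another background and scaling method, the dim probes had smaller responses and all 16 were still called. The WT response fell to log2 0.96 for Ifih1, 1.08 for Zbp1 at 1902, 1.07 for Ifi204, 1.58 for Ifi205 at 1160 and 0.40 for Adar at 3611. The probes undetected in unstimulated cells moved most: Zbp1 at 1269 to log2 0.76 in WT and 2.46 in iNOS-/- cells, and Ifi205 at 321 to 2.60 and 5.19, all below their bounds above, which hold for the scaled intensities only. With a floor of 16 the WT response of Ifi205 was 2.68 at 321 and 1.80 at 1160.

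**Figure D2:**
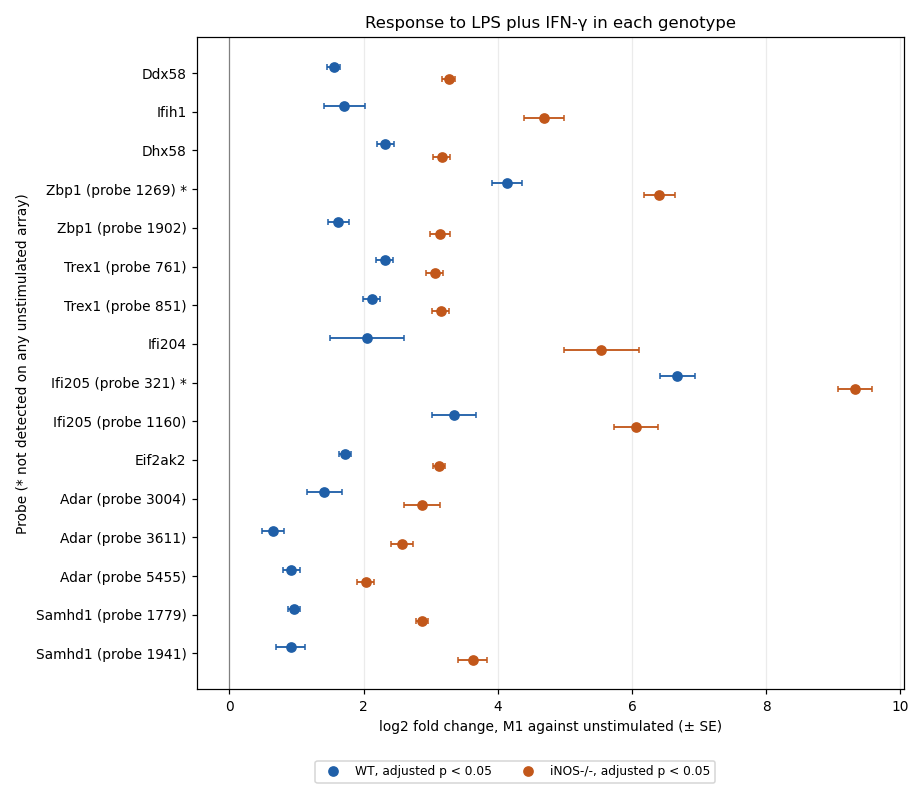
Log2 fold change of each probe after LPS plus IFN-γ (horizontal axis) in WT and in iNOS-/- cells, with bars of 1 SE from the limma fit. Every change was positive and called in both genotypes, and the iNOS-/- change was the larger for each probe, while the sizes at the asterisked probes depend on the floor of 1.

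Between the M1 groups, which asks how the genotype label bears on activated cells, 16 of 16 probes were called higher in iNOS-/- M1 macrophages. The background was 24.2%, with 37.8% of all probes having both iNOS-/- M1 arrays above both WT M1 arrays. The members' median log2 difference was 1.82 and that of all probes 0.00. The largest differences were in the PYHIN genes, at 7.93-fold and 7.30-fold for the 2 Ifi205 probes (log2 2.99, SE 0.26, and 2.87, SE 0.33) and 6.10-fold for Ifi204 (log2 2.61, SE 0.56). Ifih1 differed 5.17-fold (log2 2.37, SE 0.30), Ddx58 3.68-fold (log2 1.88, SE 0.099) and Dhx58 3.39-fold (log2 1.76, SE 0.13). Eif2ak2 differed 2.96-fold (log2 1.57, SE 0.090, adjusted p = 0.000263). Zbp1 differed 3.20-fold at position 1902 and 4.83-fold at 1269. Trex1 differed 3.20-fold and 3.06-fold. Adjusted p over the 16 probes ran from 0.00023 for Ddx58 to 0.0136 for Ifi204. Ifi204 no longer passed without WT M1 array 1 or without iNOS-/- M1 array 2 (adjusted p = 0.0642 and 0.0581).

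Probes of 1 gene differed in size. The 2 Samhd1 probes gave log2 1.61 (SE 0.089) and 2.42 (SE 0.21), the first falling to 1.05 with neqc and with quantile normalization. The 3 Adar probes gave 1.37 (SE 0.13) at 5455, 1.93 (SE 0.16) at 3611 and 1.68 (SE 0.26) at 3004. The differences between probes of a gene were not tested.

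Before stimulation fewer of the sensor probes were called by genotype label than between the M1 groups. Of 16 probes, 3 were called higher in iNOS-/- cells, against 15.9% of all probes, and 0 were called lower, against 16.2%. The higher ones were Dhx58 (log2 0.92, SE 0.13, adjusted p = 0.00499) and both Trex1 probes (log2 0.93, SE 0.13, and 0.58, SE 0.13, adjusted p = 0.00498 and 0.0220). A share of 3 in 16 is near the background. The second Trex1 probe did not pass without WT unstimulated array 1, nor without either iNOS-/- unstimulated array (adjusted p = 0.0581 to 0.113). For the probes not called, the 95% intervals of the log2 difference show what the arrays leave possible. They ran from -0.09 to 0.41 for Ddx58, from -0.06 to 0.39 for Eif2ak2 and from -0.41 to 0.41 for Adar at position 3611, but from -1.37 to 0.15 for Ifih1 and from -2.29 to 0.52 for Ifi204. Samhd1 at position 1779 was the nearest to a lower call (log2 -0.30, SE 0.089, adjusted p = 0.0538), with both iNOS-/- arrays below both WT arrays. It passed in 4 alternative settings (adjusted p = 0.00426 to 0.0413). Ifi204 was called lower without iNOS-/- unstimulated array 2, the detected one of its group (log2 -1.74, adjusted p = 0.0118).

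**Figure D3:**
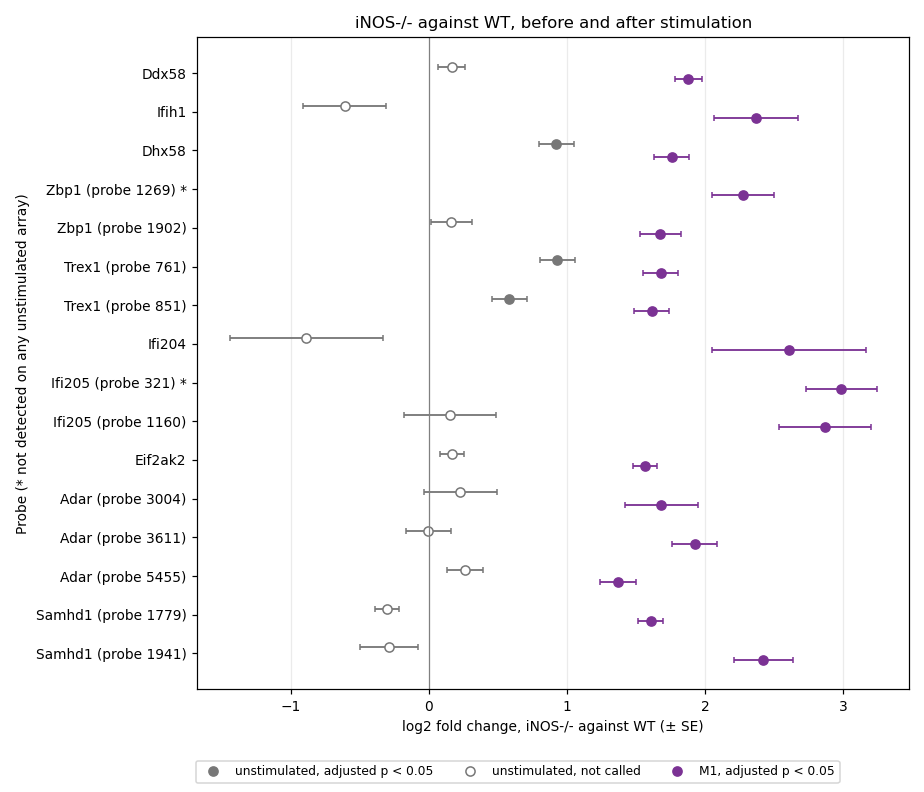
Log2 difference of iNOS-/- from WT for each probe (horizontal axis), before and after stimulation, with bars of 1 SE from the limma fit and open points where not called. Before stimulation Dhx58 and the Trex1 probes were called higher and none of the others was called, Ifih1 and Ifi204 lying at -0.61 and -0.89 with wide bars, and the M1 differences lie between 1.37 and 2.99. The 2 asterisked probes have no unstimulated point.

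The response itself, M1 against unstimulated, was compared between genotypes with an interaction term. It was larger in iNOS-/- cells for 16 of 16 probes, where 20.8% of all probes were called in this direction, with a median difference of log2 1.81 against 0.01 for all probes. By gene it was largest in Ifi204 (log2 3.50, SE 0.79), Ifih1 (2.98, SE 0.43), Ifi205 (2.72, SE 0.47, at 1160) and the dimmer Samhd1 probe (2.71, SE 0.30). Ifi204, Ifih1 and this Ifi205 probe were dim without stimulation. Over the alternatives their differences ran from 2.51 to 4.34, 2.37 to 3.31 and 2.26 to 3.27 in turn. Dhx58 and Trex1 had the smallest differences, at 0.84 (SE 0.18) for Dhx58 and 0.75 (SE 0.18) and 1.03 (SE 0.18) for Trex1. These were the genes already higher in unstimulated iNOS-/- cells, which lowers the difference of responses by arithmetic. The Trex1 difference at position 761 was not called with neqc (log2 0.32, adjusted p = 0.135) or quantile normalization (log2 0.27, adjusted p = 0.294). Nor was it called without WT unstimulated array 2, WT M1 array 2, either iNOS-/- unstimulated array or iNOS-/- M1 array 1 (adjusted p = 0.0543 to 0.0763). Dhx58 did not pass without WT M1 array 1 or iNOS-/- unstimulated array 2 (adjusted p = 0.0519 and 0.0569). Ifi204 did not pass without either WT unstimulated array, WT M1 array 1 or iNOS-/- M1 array 2 (adjusted p = 0.0529 to 0.0601), and Adar at 3004 without WT M1 array 2, iNOS-/- unstimulated array 1 or either iNOS-/- M1 array (adjusted p = 0.0647 to 0.0841). For Eif2ak2 the difference was log2 1.40 (SE 0.13), and 0.88 with neqc and with quantile normalization. For Samhd1 at 1779 it was 1.91 (SE 0.13), and 1.21 and 1.22 with these methods. The count of 16 includes Zbp1 at 1269 and Ifi205 at 321, undetected without stimulation, whose difference of responses is not a measured size because it depends on the floor of 1.

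The signalling partners of the sensors were read from 5 lists, 1 probe a gene, with calls between the M1 groups set against 24.2% of all probes called higher and 24.3% called lower. The list of interferon inputs (interferon-β, interferon receptors and their signalling genes) had 10 of 11 genes called higher in iNOS-/- M1 and 1 lower (median log2 1.02). Ifnb1, the gene of interferon-β, was undetected without stimulation and read 54.4 and 56.6 in WT M1 and 167 and 172 in iNOS-/- M1 (3.05-fold, log2 1.61, SE 0.38, adjusted p = 0.0199). Its call was lost on leaving out any of the 4 M1 arrays (adjusted p = 0.0699 to 0.0801). The lower gene was Ifngr1, a chain of the IFN-γ receptor, at 389 and 346 in WT M1 and 88.1 and 77.5 in iNOS-/- M1 (log2 -2.15, SE 0.11). Before stimulation this list had 4 higher and 2 lower of 11 in iNOS-/- cells, against 15.9% and 16.2% of all probes.

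Of the RIG-I-like receptor signalling list 11 of 15 genes were higher in iNOS-/- M1 and 1 lower (median log2 0.83). Irf7, the interferon regulatory factor that amplifies interferon production, read 176 and 195 in WT M1 and 1031 and 1102 in iNOS-/- M1 (5.75-fold, log2 2.52, SE 0.14). Usp18, which removes ISG15 from proteins and dampens interferon signalling, differed 4.63-fold (log2 2.21, SE 0.080). Nlrx1, a mitochondrial regulator of this pathway, was lower (log2 -0.51, SE 0.097). Irf7 and Usp18 were also higher before stimulation, by log2 1.44 (0.74 with neqc) and 0.97. In the unstimulated comparison this list had 2 higher and 4 lower of 15, against 15.9% and 16.2% of all probes.

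The DNA sensing list had 4 of 14 genes higher and 2 lower (median log2 0.29). Ifi203, another PYHIN gene, differed 2.06-fold (log2 1.04, SE 0.12), and Casp1, the inflammasome protease, 2.01-fold (log2 1.01, SE 0.087), falling to 0.46 with neqc and with quantile normalization. Pycard, the inflammasome adaptor, was lower (log2 -1.98, SE 0.16), with 168 and 163 in WT M1 against 36.3 and 48.7 in iNOS-/- M1. The cGAS gene, listed as E330016A19Rik, was not called between the M1 groups (log2 0.17, 95% interval -1.08 to 1.42). Of the nucleic acid clearance list 4 of 10 genes were higher and 3 lower (median log2 0.18). Dnase1l3, a secreted DNase, read 29.0 and 30.1 in WT M1 and 285 and 310.4 in iNOS-/- M1 (10.1-fold, log2 3.33, SE 0.084), while Dnase2a, the lysosomal DNase, was lower (log2 -1.63, SE 0.15). Dnase2a was also lower in iNOS-/- cells before stimulation (log2 -0.67, SE 0.15, and -0.54 without WT unstimulated array 2). There the DNA sensing list had 2 higher and 0 lower of 14, and the clearance list 1 higher and 2 lower of 10. Of all probes, 15.9% were higher and 16.2% lower.

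Of the ZBP1 and PKR pathway list 5 of 12 genes were higher and 5 lower (median log2 0.05). Mlkl, the necroptosis effector, was higher (2.47-fold, log2 1.30, SE 0.12), as was Ppp1r15b, which helps to reverse the PKR mark on translation factor eIF2 (4.56-fold, log2 2.19, SE 0.12). Prkra, an activator of PKR, and Ddit3, a stress transcription factor downstream of eIF2, were lower (log2 -0.71, SE 0.12, and -0.57, SE 0.090). Ddit3 was also lower in iNOS-/- cells before stimulation (log2 -1.04, SE 0.090). In that comparison this list had 2 higher and 5 lower of 12, against 15.9% and 16.2% of all probes.

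**Figure D4:**
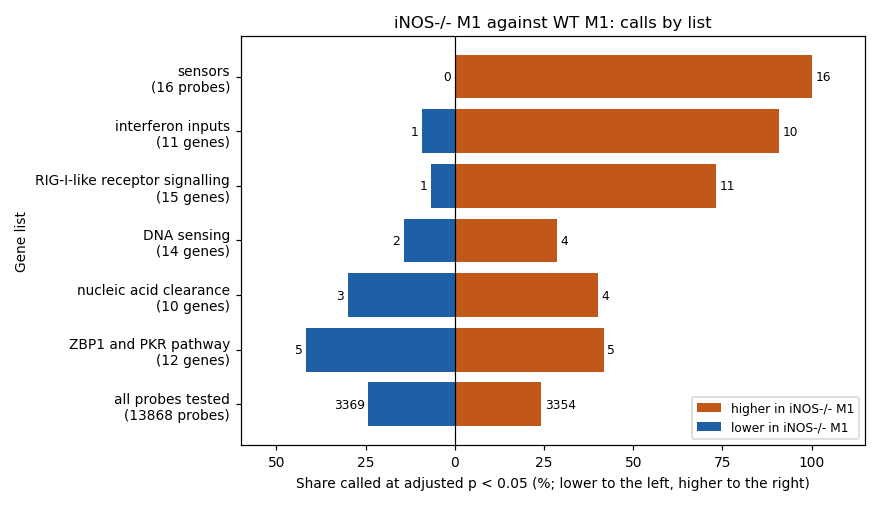
Share of each list called between the M1 groups at an adjusted p under 0.05 (horizontal axis, percent), with genes higher in iNOS-/- M1 to the right and lower to the left, and the number called beside each bar. All 16 sensor probes and 10 of 11 interferon input genes were called higher, while the ZBP1 and PKR pathway list had 5 each way. The lists were drawn up with earlier results known, and all probes tested are at the bottom.

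The pattern over the 8 arrays was much alike among the members. Taking 1 probe a gene, Pearson's r of each with the members' mean ran from 0.970 for Ifi204 to 0.998 for Eif2ak2, and each gene is itself part of that mean. The 5 other genes most like this mean, of 6270 probes detected on all M1 arrays and ranging over at least 1 log2 unit, were St3gal5, Il1rn, Tbc1d1, Sema4f and Irgm1, with r from 0.998 to 0.999. Sema4f lay at the floor on all 4 unstimulated arrays, so its r rests partly on values with no order. St3gal5 makes the ganglioside GM3, Il1rn is the interleukin 1 receptor antagonist and Irgm1 is an interferon-inducible GTPase. St3gal5 had mean log2 intensities of 6.85 in WT unstimulated, 6.98 in iNOS-/- unstimulated, 8.58 in WT M1 and 10.1 in iNOS-/- M1. These values are a description: the 8 points share 4 groups of 2 arrays, and group differences dominate them.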

How the data were processed

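The authors hybridised the RNA of the 8 samples to Illumina bead arrays (MouseRef-8 in the labels, MouseWG-8 in the methods). The deposited table holds GenomeStudio intensity values, not normalized between arrays. Beside each value the authors gave a detection p-value. In the study's methods the background was subtracted, arrays were normalized by rank-invariant probes, negative values became 1, and log2 values went to limma (3.14.4 per the labels) with Benjamini-Hochberg adjustment. By the deposited table's header neither background nor array differences had been removed. Yet undetected probes lay around 0, and 25.2% to 27.2% of the values on each array were below 0. Values below 0 mean that some background had been removed before the table was made, and by which step is not settled. No further background was subtracted here.

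Arrays were brought to the mean array by a robust line through probes of similar rank (tolerance 0.05, ranks 0.5 to 0.9, MASS 7.3.60.0.1). Values under 1 became 1 before log2, so the fold change of a dim probe depends on that floor. Tests covered the 13868 probes detected (p-value under 0.05) on 2 or more arrays. The 4 groups were fitted together over all 8 arrays with limma 3.58.1 in R 4.3.3. Calls are at an adjusted p under 0.05, with SE and 95% intervals from this fit. For a probe that a group detected on neither array the fold is a lower bound. There the dim group's value on each array was raised, where it was smaller, to the lowest intensity of any detected probe. The number of arrays limits the precision, and for dim probes so do the floor and the background method.

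The members and gene lists were chosen with earlier results of these data known, so they are no independent evidence. The rule for names took all member probes, Nos2, up to 2 called genes with the largest changes each way per pathway list and comparison, and the 5 genes most like the members. Of these pathway genes the text gives a selection and the rest by counts. Some genes that the rule named are not reported here. As alternatives the data were normalized by quantiles or with neqc, the floor was set to 16, the detection filter was dropped or made stricter (4 arrays), and the model was fitted with only the arrays compared, the replicate number as a block, an intensity trend, and each array left out in turn. Tested on simulated data for the M1 comparison with 12431 probes, the fit called 182 of 200 changed probes and 13 unchanged ones. The changed probes were drawn from bright ones and altered in iNOS-/- M1 only, so this rate does not cover the dim members. The real M1 comparison called 6723 of 13868 probes, far more than were simulated as changed.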

Additional observations from a re-analysis of the deposited data

Results flagged for a closer look

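The response to LPS plus IFN-γ differed between the genotypes for each of the 16 probes, by the interaction term of the limma fit with an adjusted p under 0.05. The values are the iNOS-/- response minus the WT response on the log2 scale. Among the RNA sensors they were 1.71 for Ddx58, 2.98 for Ifih1 and 0.84 for Dhx58. Zbp1 had 1.51 at position 1902, Eif2ak2 had 1.40, and Adar had 1.46, 1.93 and 1.11 at positions 3004, 3611 and 5455. Among the PYHIN genes they were 3.50 for Ifi204 and 2.72 for Ifi205 at position 1160. Trex1 had 0.75 and 1.03 at positions 761 and 851, and Samhd1 had 1.91 and 2.71 at positions 1779 and 1941, the first falling to 1.21 with neqc and 1.22 with quantile normalization. Zbp1 at 1269 (2.27 with undetected arrays at the floor of 1, 2.47 at their bounds) and Ifi205 at 321 (2.65 and 3.18) were undetected without stimulation, so these 2 values depend on the floor and are not measured sizes. Ifi204, Ifih1 and Ifi205 at 1160 were also dim without stimulation. Over the alternatives their differences ran from 2.51 to 4.34, 2.37 to 3.31 and 2.26 to 3.27 in turn. The difference was called in the same direction for 20.8% of all probes tested.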

How the results depend on the processing

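The counts of members called changed by at most 1.5 times under every alternative run, namely 12 to 16 of 16 in the WT response, 16 in the iNOS-/- response, 15 to 16 between the M1 groups, 2 to 4 between the unstimulated groups and 14 to 16 for the difference of responses. With 1 array left out they ranged from 12 to 15, 16 to 16, 15 to 16, 2 to 3 and 14 to 15 in the same order. Of 1264 member values recomputed, 1197 kept direction and call, 53 lost the call, 5 gained it and 9 reversed. The reversed ones were uncalled and lay in the unstimulated comparison. Ifi205 at 1160 (0.15 in the main fit) reversed with neqc (-0.0048) and without WT CON replicate 2 (-0.40, range with 1 array left out -0.40 to 0.62). Adar at 3004 (0.23) reversed without WT CON replicate 1 (-0.13, range -0.13 to 0.50). Adar at 3611, near 0 in the main fit (-0.0033), reversed on leaving out any of 6 arrays (range -0.12 to 0.058). The Nos2 difference of responses, not called, reversed with neqc (0.22) and a floor of 16 (0.36). The cause was not tested. Called member values moved by over 1.5 times in 14 cases with neqc, 5 with a floor of 16, 4 with quantile normalization and 1 without WT CON replicate 2. Quantile normalization moved the median of all probes from 0.07 to -0.06 in the WT response and from 0.04 to -0.13 in the iNOS-/- response.

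Same-numbered arrays did not deviate together (correlations between groups of -0.034 to 0.027 over 9690 probes). A shared origin hidden under the noise between arrays would not show in this check, so it cannot decide whether the numbers pair the arrays. With the replicate block the member counts were 15, 16, 16, 3 and 16, the one call lost being the WT response of Adar at 3611 (adjusted p = 0.0599). Probes undetected in a group have only bounds, and 2 arrays a group limit every test.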
